A study of Mus musculus with 9 samples.

Results

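The genes described here are 9 apolipoproteins, Apoa1, Apoa2, Apoa4, Apoa5, Apob, Apoc1, Apoc2, Apoc3 and Apoe, and Mttp, the microsomal triglyceride transfer protein. They were picked out of the table by gene symbol and make up 10 of the 54393 genes in the deposited table of mouse liver RNA sequencing. The study compared 5 liver libraries from control mice with 4 from mice given non-absorbable antibiotics, which act in the gut lumen and deplete its bacteria, to find which liver transcripts differ with the microbiota. All mice had the strain label C56Bl/6j and ate the purified diet AIN-76a. The labels do not give age, sex, the antibiotic agents or the length of treatment. The control libraries carry the replicate numbers 1 to 5 and the antibiotics libraries the numbers 1, 2, 3 and 5. No label ties a library to a separate mouse, so the p-values reflect variation among these 9 libraries, part of which may be technical. In bulk liver RNA, fewer cells of a type and less RNA per cell cannot be told apart.

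Lipoproteins carry triglyceride and cholesterol through the blood in particles coated with apolipoproteins. In the liver, Mttp loads lipid onto the growing Apob chain in the endoplasmic reticulum, which starts a very low density lipoprotein particle. Apoa1 and Apoa2 are the main proteins of high density lipoprotein. The small Apoc proteins and Apoa5 set how fast lipoprotein lipase removes triglyceride, and Apoe is the ligand by which liver receptors take up particle remnants. Apoa4 travels on both chylomicrons and high density lipoprotein and is made by intestine and, at a lower level, by mouse liver.

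None of the 10 genes passed the test between antibiotics and control, at an adjusted p under 0.05 in edgeR's quasi-likelihood test, where 2.68% of the 14873 tested genes passed. Apoa5, which promotes the clearance of plasma triglyceride, had the smallest p of the 10, with 997 ± 158 CPM in controls (SD, n = 5) and 1231 ± 123 CPM with antibiotics (SD, n = 4), adjusted p = 0.215. CPM are read counts scaled to the library's total after TMM normalisation, and log2 fold changes below are antibiotics over control. The 5 passing increases among other lipoprotein genes included the transcription factors Esrra and Nr2f2 and the remnant receptor Sdc1, and the 2 passing decreases were Sort1 and Nr0b2.

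Library totals ran from 15422891 to 59179622 estimated counts. Antibiotics libraries 1 to 3 were the shallowest and antibiotics library 5 the deepest. The lowest count of any of the 10 genes in a library was 1178, of Apoc2, and together the 10 held 2.69% to 3.36% of all counts. Albumin (Alb), the main product of hepatocytes, held 5.66% to 7.06%. The 3 enterocyte markers Cdx2, Sis and Alpi had 0 counts in all 9 libraries, while Vil1 and Lct had at most 10 and 2 counts. Fabp2, the remaining gene of that list of 6 and the one with enough counts to be tested, was at 59.1 ± 6.82 CPM in controls (SD, n = 5) and 71.4 ± 10.4 CPM with antibiotics (SD, n = 4), adjusted p = 0.215. A count of 0 in such a library allows up to 3 counts, which covers counting error only.

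The upstream sequences of Apob, Apoa4 and Apoa5 are shown because they hold matches to part of a nuclear receptor element or to an E-box. Promoters of 250 bases before the start came from RefSeq (GRCm38.p6), which matched 8 of the 10 genes. Apoc1 and Apoc3 had no entry. Capitals mark each match, and all sequences are on the plus strand.
Apob, chr12:7977508-7977647, with matches to TGNNCTTTG, part of a nuclear receptor element, and to the TATA box TATAAA:
Apob: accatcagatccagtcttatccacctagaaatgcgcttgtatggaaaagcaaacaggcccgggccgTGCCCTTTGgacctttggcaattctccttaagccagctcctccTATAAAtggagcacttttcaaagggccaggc
Apoa4, chr9:46240594-46240695, with the TGNNCTTTG match on the other strand:
Apoa4: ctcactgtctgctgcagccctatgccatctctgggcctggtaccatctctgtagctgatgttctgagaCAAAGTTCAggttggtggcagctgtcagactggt
Apoa5, chr9:46268468-46268607, with the E-box CACGTG and the TATA box:
Apoa5: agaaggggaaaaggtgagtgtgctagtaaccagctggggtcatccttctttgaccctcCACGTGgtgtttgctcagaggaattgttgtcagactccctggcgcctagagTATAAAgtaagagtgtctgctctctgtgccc
Over 32851 promoters of the same length, searched on both strands, TGNNCTTTG occurred in 5.49%, CACGTG in 6.02% and TATAAA in 12.4%. Among the 8 genes, TGNNCTTTG occurred in Apoa4 and Apob, CACGTG in Apoa5, and TATAAA in Apoa2, Apoa5, Apob and Apoe. These motifs do not overlap each other in the printed windows. A match describes letters and is not a measured binding site.

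Most of the genes lie in 2 clusters, given here in GRCm38 coordinates from GENCODE M21. Apoa1 (9:46228580-46230466), Apoc3 (9:46232933-46235636), Apoa4 (9:46240696-46243459) and Apoa5 (9:46268633-46271919) lie within 43.3 kb on chromosome 9. Apoe (7:19696109-19699188), Apoc1 (7:19689481-19692660) and Apoc2 (7:19671579-19677941) lie within 27.6 kb on chromosome 7, with Apoc4 between Apoc1 and Apoc2. Apob (12:7977648-8016835), Apoa2 (1:171225054-171226379) and Mttp (3:138089854-138144968) lie alone.

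Apob, the structural protein of very low density lipoprotein, was at 4301, 4236, 6145, 5259 and 4081 CPM in controls 1 to 5. The antibiotics libraries 1, 2, 3 and 5 were at 4530, 4797, 4749 and 4670 CPM. Controls 3 and 4 were the highest of the 9, and all 4 antibiotics libraries lay inside the control range. The means were 4804 ± 881 CPM in controls (SD, n = 5) and 4687 ± 117 CPM with antibiotics (SD, n = 4). The log2 fold change was -0.04 ± 0.13 (SE), with an adjusted p of 0.921, and the 95% interval of the difference ran from -20.3% to 19.4%. Without control 3 it turned positive, at 0.0686, with an adjusted p of 0.770.

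Mttp, its lipid-loading partner, was at 436, 402, 351, 388 and 399 CPM in controls and at 323, 403, 320 and 332 CPM with antibiotics. Antibiotics libraries 1, 3 and 5 were below every control, and antibiotics library 2 was above 4 of the 5 controls, except control 1. The means were 395 ± 30.3 CPM (SD, n = 5) and 344 ± 39.4 CPM (SD, n = 4). The log2 fold change of -0.20 ± 0.09 (SE) gave an adjusted p of 0.290, with a 95% interval of -24.5% to 0.6%. Without antibiotics library 2 it was -0.28 and the adjusted p was 0.153. Mttp counts per 100 Apob counts ranged from 5.72 to 10.1 in controls and from 6.73 to 8.40 with antibiotics, so the antibiotics range lay within that of controls.

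The high density lipoprotein genes held the highest levels per length together with Apoe. Apoa1, which takes up cellular cholesterol through Abca1, was at 5379, 6915, 5444, 5348 and 7560 CPM in controls. With antibiotics it was at 7933, 6047, 6611 and 7210 CPM. Antibiotics library 1 was the highest of the 9, and the groups overlapped. Apoa1 had a log2 fold change of 0.18 ± 0.14 (SE), with an adjusted p of 0.535 and a 95% interval of -8.54% to 40.6%. It ranged from 0.11 (without antibiotics library 1) to 0.27 (without control 5) with 1 library left out.

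Apoa2, the second protein of high density lipoprotein, was at 4613, 4690, 3534, 3418 and 4039 CPM in controls and at 4686, 4183, 4114 and 4110 CPM with antibiotics. Controls 3 and 4 were the lowest 2 libraries. Its log2 fold change was 0.07 ± 0.12 (SE), with an adjusted p of 0.796. The 95% interval ran from -12.6% to 26.8%, and leaving out 1 library gave 0.0188 (without control 4) to 0.135 (without control 2).

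Apoa4 had the widest relative spread of the 10 genes, with coefficients of variation of 22.4% in controls and 29.7% with antibiotics. Its controls were at 577, 554, 472, 789 and 778 CPM, and its antibiotics libraries at 370, 551, 394 and 688 CPM. Antibiotics libraries 1 and 3 were below every control, whereas library 5 was above 3 of the 5. The means were 634 ± 142 CPM (SD, n = 5) and 500.5 ± 149 CPM (SD, n = 4). The log2 fold change was -0.34 ± 0.21 (SE), the lowest of the 10, with an adjusted p of 0.416 and a 95% interval of -42.3% to 8%. With 1 library left out it ranged from -0.53 (without antibiotics library 5, adjusted p = 0.230) to -0.22 (without antibiotics library 1, adjusted p = 0.688). The antisense genes over Apoa4, Gm10680 and Gm47528, had at most 10 and 3 counts.

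Among the genes that set triglyceride clearance, Apoa5 was at 974, 1057, 851, 866 and 1235 CPM in controls. The antibiotics libraries were at 1404, 1164, 1127 and 1228 CPM. All 4 antibiotics libraries were above controls 1 to 4, and control 5 lay among them, so the groups overlapped. For Apoa5 the log2 fold change was 0.30 ± 0.12 (SE), with a 95% interval of 2.4% to 48.9% and an adjusted p of 0.215. Without control 5 the log2 fold change was 0.39 and the adjusted p 0.0792, and without antibiotics library 1 they were 0.23 and 0.469. The antisense gene Gm47544, which shares exon sequence with Apoa5, had at most 3 counts.

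Apoc3, which slows triglyceride clearance, was at 1375, 1478, 920, 1077 and 1321 CPM in controls and at 1231, 1236, 1025 and 1086 CPM with antibiotics. Controls 3 and 4 were the lowest and the third lowest of the 9, with antibiotics library 3 between them. The fitted difference was -0.11 ± 0.14 (log2, SE), with an adjusted p of 0.727. The 95% interval ran from -25% to 14.6%. It was -0.198 without control 3 and -0.0326 without control 2, with adjusted p of 0.378 and 0.942.

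Apoc1, which inhibits lipase and receptor binding, was at 2897, 3176, 2246, 2043 and 2569 CPM in controls and at 2739, 2641, 2271 and 2283 CPM with antibiotics. All antibiotics libraries lay inside the control range. Their fitted difference from controls was -0.06 ± 0.14 (log2, SE), with an adjusted p of 0.865 and a 95% interval of -22.2% to 18.5%. Without control 2 the sign turned, at 0.0299, and without control 4 it was -0.132.

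Apoc2, the cofactor that activates lipoprotein lipase, was at 93.3, 97.4, 94.9, 93.1 and 93 CPM in controls. With antibiotics it was at 76.9, 100, 125 and 114 CPM. The 5 controls lay within a narrow band, with a coefficient of variation of 2.01%, while antibiotics library 1 lay below that band and the other 3 above it. The coefficient of variation of the antibiotics group was 19.95%. Apoc2 had a log2 fold change of 0.14 ± 0.11 (SE), with an adjusted p of 0.551 and a 95% interval of -7.31% to 31.4%. Leaving out antibiotics library 3 gave 0.0411 and leaving out antibiotics library 1 gave 0.26, with adjusted p of 0.902 and 0.166.

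The split of reads between Apoc2 and a read-through gene is uncertain. Of the 813 exon bases of Apoc2, 646 (79.5%) also belong to Gm44805, which runs on from Apoc4 into Apoc2. Gm44805 was at 79.4 ± 11.2 CPM in controls (SD, n = 5) and 80.2 ± 7.95 CPM with antibiotics (SD, n = 4), with an adjusted p of 0.953. Summed, the pair was at 173.7 ± 10.97 CPM in controls and 184 ± 27.1 CPM with antibiotics. The control sums ran from 161.9 to 189.9 CPM, a wider relative range than that of Apoc2 alone. Apoc2 took 49% to 60.1% of the sum over the 9 libraries.

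Apoe had the highest CPM of the 10 genes, at 8985, 10050, 6702, 7518 and 9925 CPM in controls. With antibiotics it was at 10510, 8873, 7358 and 8779 CPM. The lowest libraries were control 3, antibiotics library 3 and control 4, so low values occurred in both groups. Its log2 fold change was 0.04 ± 0.15 (SE), with an adjusted p of 0.923 and a 95% interval of -18.6% to 29.9%. Macrophages also make Apoe, and all 10 Kupffer cell and macrophage markers had negative log2 fold changes, of which 0 passed. Their summed level was 221 to 661 CPM in controls and 230 to 291 CPM with antibiotics. Control 2 held the 661 CPM and the other controls at most 309 CPM. Without control 2 the log2 fold change of Apoe was 0.10, with an adjusted p of 0.812, and the part of these cells in the Apoe values was not tested.

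**Figure D1:**
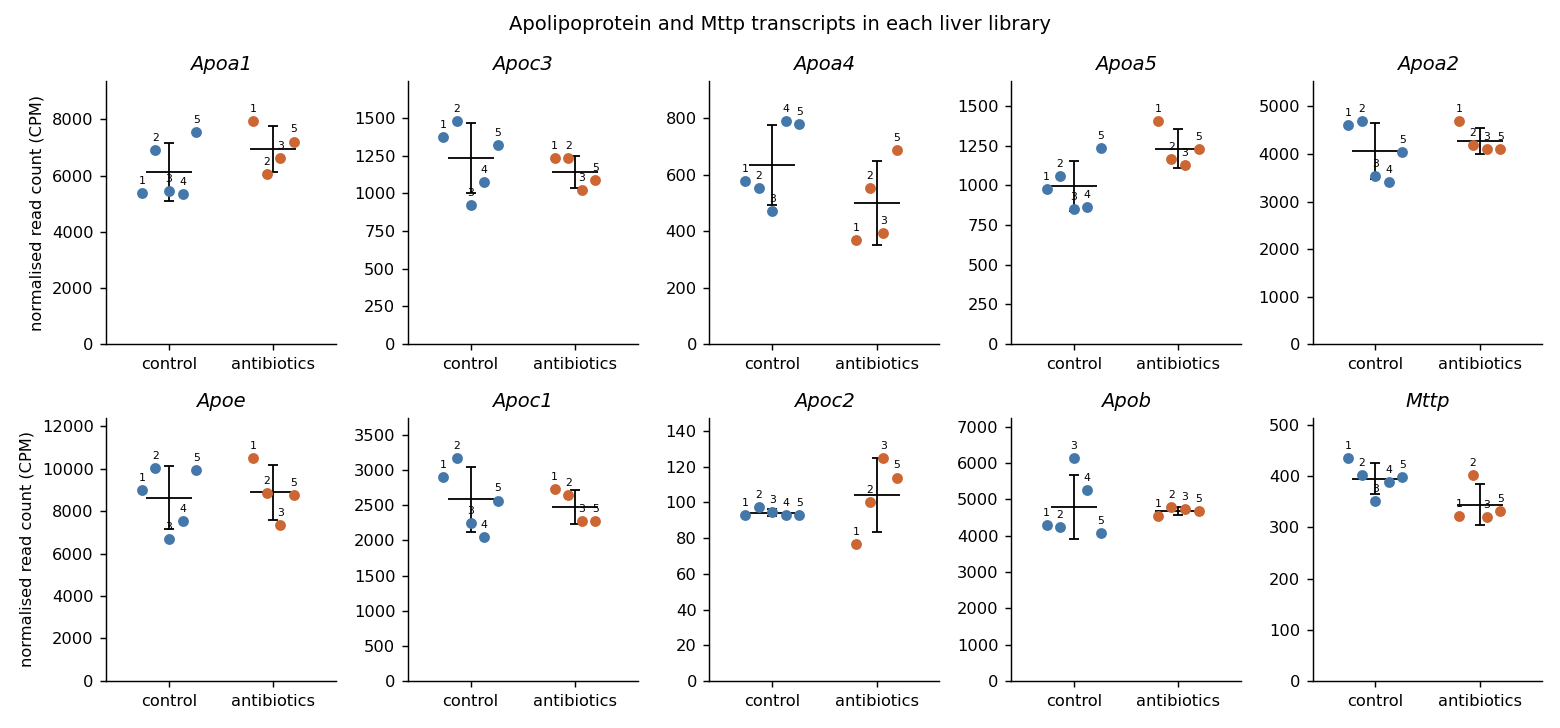
Normalised counts (CPM, vertical axes from 0) of the 10 genes, with 1 point for each of the 5 control and 4 antibiotics libraries, labelled by replicate number, the group mean as a line and the SD as a bar. The points of the groups overlap for every gene, and the 5 controls of Apoc2 lie between 93 and 97.4 CPM.

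Read together, 5 of the 10 genes had positive and 5 negative log2 fold changes. Their median was 0.00215 and their median size regardless of sign 0.126, beside -0.0074 and 0.153 over all tested genes. DESeq2 and limma-voom also called 0 of the 10, where they called 6.56% and 2.78% of all genes. At an unadjusted p under 0.05, 1 of the 10 was counted by edgeR, against 18.5% of all genes in edgeR. At the same threshold 1 of the 10 was counted by limma-voom and 2 by DESeq2, whose own shares of all genes are not given here. Groups did not overlap for 0 of the 10, against 8.88% of all genes. The 95% intervals of the 10 genes had ends between -42.3% (Apoa4) and 48.9% (Apoa5), so the data are compatible with sizeable differences for some of them in spite of the missed threshold.

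**Figure D2:**
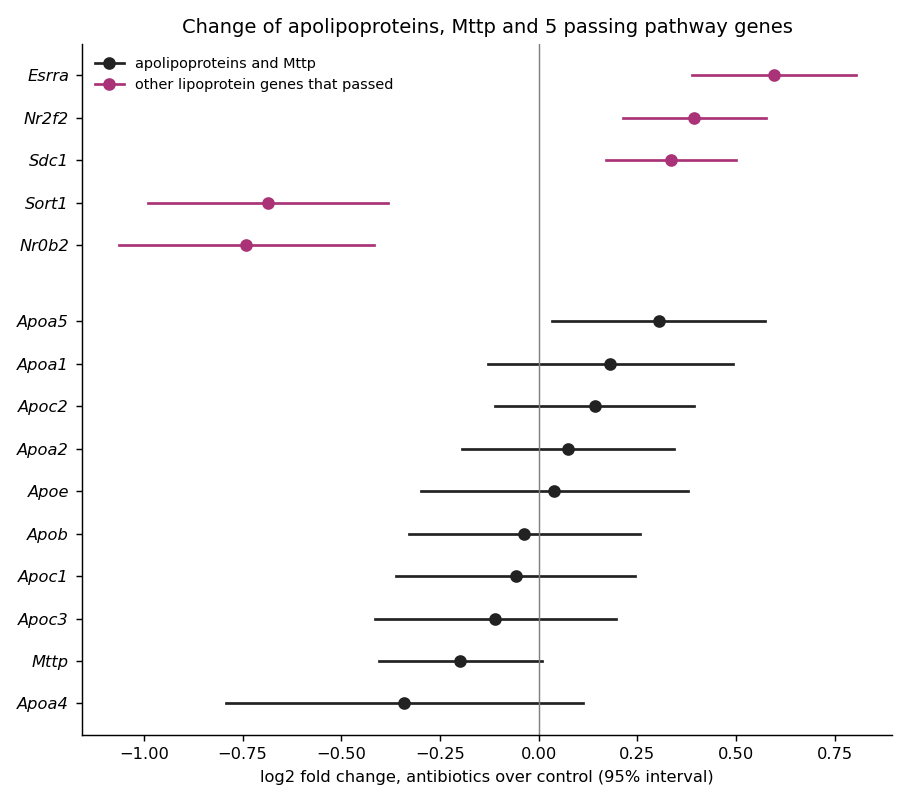
Log2 fold change of antibiotics over control (horizontal axis) with its 95% interval for the apolipoproteins, Mttp and 5 of the 7 passing lipoprotein pathway genes. Among the 10 genes the interval of Apoa5 alone lies above 0, and its adjusted p was 0.215.

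Ordered by level per kilobase of transcript (CPM divided by transcript length, mean over 9 libraries), the genes spanned from Apoa2 at 8019 to Mttp at 94. After Apoa2 came Apoa1 at 6275, Apoe at 6211, Apoc1 at 4775 and Apoc3 at 2271 CPM per kb. Apoa5 at 438, Apob at 341 and Apoa4 at 317 CPM per kb followed, and Apoc2 at 136 CPM per kb stood between them and Mttp. Apoa2 was above Apoa1 in 9 of 9 libraries. Apoa1 was above Apoe in 5 of 9 and Apob above Apoa4 in 4 of 9, so those neighbours did not differ beyond their spread. Apoa5 was above Apob in 7 of 9, and the other neighbours kept their order in 9 of 9. With the shortest principal transcript of each gene as the length, Apoe at 7921 ranked above Apoa1. Among all genes, Apoa2 ranked 7 and Mttp 695 in level per kb.

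**Figure D3:**
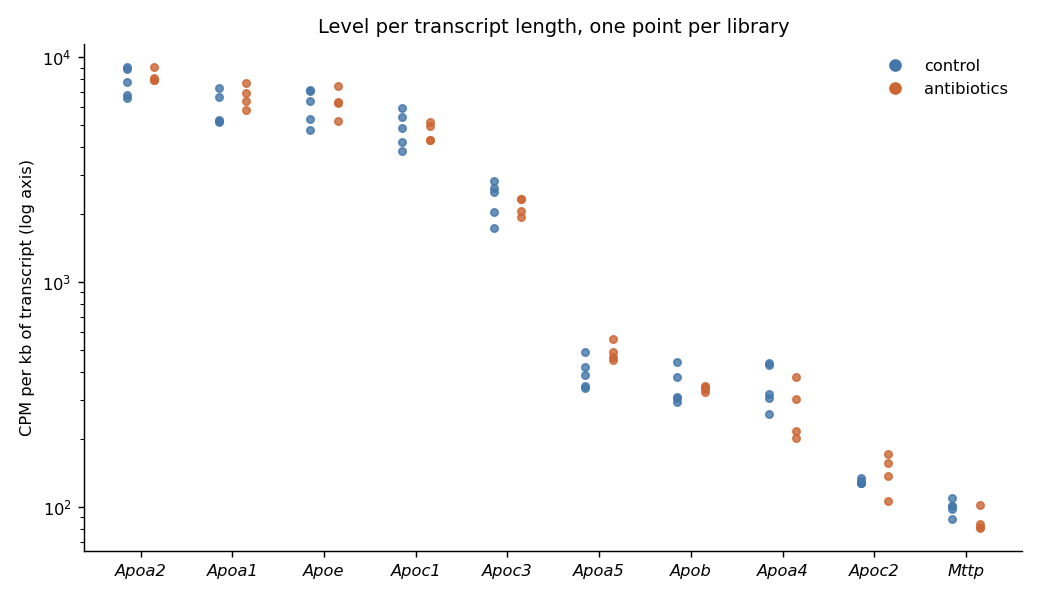
Level per kilobase of transcript (CPM per kb, log axis) of the 10 genes in order of their means, with points for the 5 control and 4 antibiotics libraries. Apoa2 is the highest at a mean of 8019 and Mttp the lowest at 94 CPM per kb. The points of Apoa1 and Apoe overlap, as do those of Apob and Apoa4.

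Pairwise ratios within a library do not depend on the scaling between libraries. Of the 45 pairs of the 10 genes, 2 had ratios that did not overlap between groups. In both, the ratio of Apoa5 to the other gene was higher with antibiotics. They were picked out after all pairs were computed, with no test. The pairs share genes, and the share over pairs of other genes was not computed. Apoa5 counts per 100 Apoc3 counts were 70.8, 71.5, 92.5, 80.4 and 93.5 in controls and 114, 94.2, 110 and 113 with antibiotics. The gap between the groups was thus narrow, between control 5 and antibiotics library 2. Apoa5 counts per 100 Apoe counts ranged from 10.5 to 12.7 in controls and from 13.1 to 15.3 with antibiotics.

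In the control libraries, the long Apob transcript and most of the short apolipoprotein transcripts lay on opposite sides of the control mean. The antibiotics libraries did not all show this. In antibiotics library 2, Apob at 0.0161 (log2) lay on the same side as Apoa2, Apoc1, Apoc3 and Apoe, and Apoa1 at -0.0036 on the other. In antibiotics library 1, Apob at -0.0666 lay opposite to all of these. In controls 3 and 4, where Apob was highest, the 655 genes with transcripts over 8 kb had median log2 deviations from the control mean of 0.192 and 0.149. The 1510 genes of up to 1 kb had -0.0715 and -0.0647 there. In control 5, where Apob was lowest, the medians were -0.193 for long genes and 0.0902 for short genes. The antibiotics libraries had -0.0466 to 0.0127 for long genes. Apob has a transcript of 13934 nt, and its own deviations were 0.373 in control 3, 0.149 in control 4 and -0.217 in control 5. Apoc1, Apoc3, Apoa2, Apoa1 and Apoe, with transcripts of 518 to 1408 nt, were below the control mean in controls 3 and 4, with deviations from -0.403 to -0.155. Apoc2, at 727 nt, was an exception, at 0.00877 and -0.0187. Apoa4, at 1815 nt, was at -0.397 in control 3 and at 0.344 in control 4, there on the side of Apob. Apoa5, at 2515 nt, was at -0.214 and -0.188, and Mttp, at 3963 nt, at -0.166 and -0.0227. Genes of 2 to 4 kb had medians of only -0.00943 and -0.000338 in these controls. The part of transcript length in these values was not tested beyond the correction that follows. With a correction for transcript length, chosen after seeing the data, the log2 fold change of Apob was -0.01 ± 0.10 (SE) and 0 of the 10 genes passed.

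**Figure D4:**
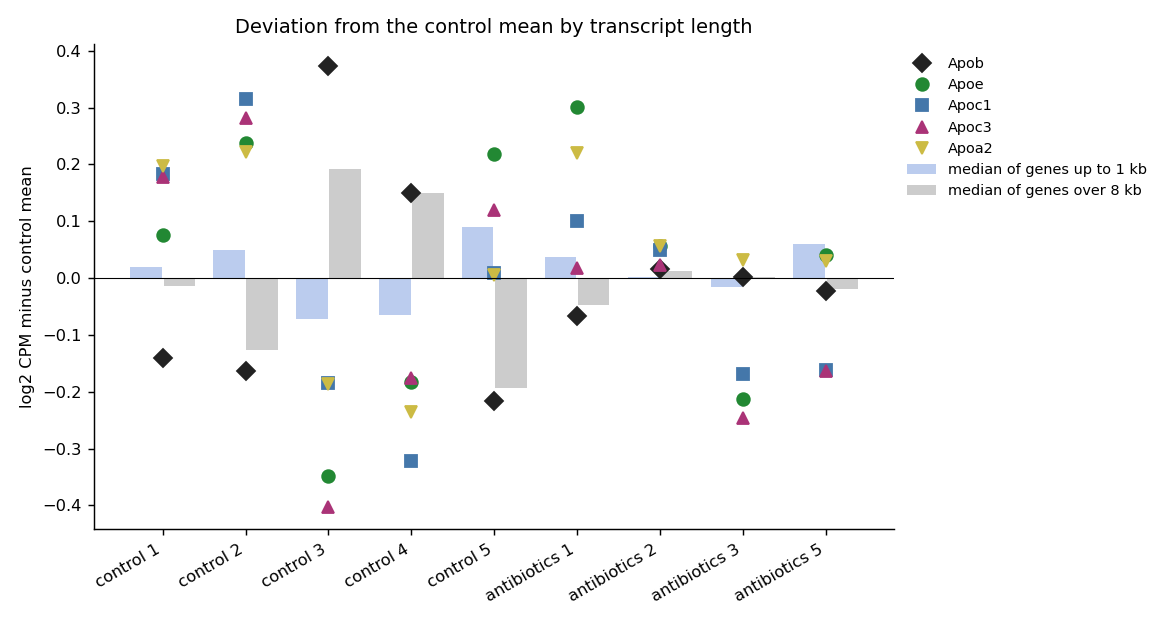
Log2 CPM minus the control mean (vertical axis) in each library, with bars for the medians of genes of up to 1 kb and over 8 kb and points for Apob, Apoe, Apoc1, Apoc3 and Apoa2. Long genes and Apob are above 0 in controls 3 and 4 and below 0 in control 5, and the bars of the antibiotics libraries stay within -0.0466 to 0.0127 for genes over 8 kb.

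The genes whose variation within groups was most like that of Apoa5 were Acads, Ppme1 and Mrpl34. Their Pearson r of log2 CPM after subtracting group means was 0.986, 0.985 and 0.983 over 9 libraries, the highest among 12456 candidates. These are descriptions over libraries that differ in depth and length composition, and the part of either in these correlations was not tested. Acads, a mitochondrial short-chain acyl-CoA dehydrogenase, had a log2 fold change of 0.15 with an adjusted p of 0.410.

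Around the 10 genes, 77 other genes of lipoprotein metabolism were listed and 76 tested. Of these, 7 passed, 5 higher and 2 lower with antibiotics, where 1.63% of all tested genes passed as higher and 1.05% as lower. Apod had at most 3 counts and was not tested. The list was drawn up with earlier results of these data known, so its count is a description.

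Of 7 tested other apolipoproteins, 0 passed, and their log2 fold changes had a median of 0.0237. Saa4, a constitutive serum amyloid of high density lipoprotein, was at 225 ± 33.2 CPM in controls (SD, n = 5) and 288 ± 53.7 CPM with antibiotics (SD, n = 4), adjusted p = 0.201. Apom, which carries sphingosine 1-phosphate, was at 225 ± 19.7 and 199 ± 21.8 CPM, adjusted p = 0.350. Apon was at 227 ± 28.4 and 249 ± 12.6 CPM, adjusted p = 0.494.

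Of 16 genes of particle assembly, secretion and editing, 1 passed. Sort1, the sorting receptor sortilin that binds Apob in the secretory pathway, was at 18.4, 23.6, 26.5, 19.7 and 28.8 CPM in controls. With antibiotics it was at 14.1, 12.7, 16.7 and 14.5 CPM, and every antibiotics library was below every control. Sort1 fell by 0.69 ± 0.14 (log2, SE), adjusted p = 0.0330. Mia3, which helps load bulky cargo into transport carriers, was at 131 and 113 CPM (adjusted p = 0.135). Tmem41b was at 27.2 and 24 CPM (adjusted p = 0.195) and the cargo receptor Surf4 at 286 and 253 CPM (adjusted p = 0.311).

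Of 14 plasma enzymes and remodelling factors, 0 passed. Lpl, lipoprotein lipase, was at 17.7 ± 4.56 CPM in controls (SD, n = 5) and 11.7 ± 3.48 CPM with antibiotics (SD, n = 4), adjusted p = 0.168. Angptl4, which inhibits it, was at 145 ± 13.6 CPM in controls and 124 ± 16.9 CPM with antibiotics, a log2 fold change of -0.22 ± 0.10 (SE), with an adjusted p of 0.271.

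Of 11 lipoprotein receptors and partners, 1 passed. Sdc1, the heparan sulfate proteoglycan syndecan-1, which captures remnants at the hepatocyte surface, was at 128, 123, 118, 118 and 127 CPM in controls. With antibiotics it was at 148, 146, 178 and 147 CPM, above every control. Sdc1 rose by 0.34 ± 0.08 (log2, SE), adjusted p = 0.0425. The call was lost with no low-count filter (adjusted p = 0.0764) and with the length correction (adjusted p = 0.0529). For Lsr, the lipolysis-stimulated lipoprotein receptor, the log2 fold change was -0.39 ± 0.11 (SE) and the adjusted p 0.0887. The fatty acid transporter Cd36 had 0.50 ± 0.22 (adjusted p = 0.253) and Sorl1 -0.24 ± 0.19 (adjusted p = 0.544).

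Of 28 genes listed as transcriptional regulators, 5 passed, 4 higher and 1 lower, where 2.68% of all tested genes passed. Esrra, an orphan nuclear receptor of mitochondrial energy genes, was at 15.3, 17.1, 16.9, 17.2 and 21.3 CPM in controls and at 25.7, 26.6, 24.8 and 28.6 CPM with antibiotics. Esrra rose by 0.60 ± 0.09 (log2, SE), adjusted p = 0.0140. With antibiotics every library was above every control. The gene Trmt112 overlaps Esrra on the opposite strand and had a mean of 17.5 CPM. Whether strand was used in the counting is not stated, so the Esrra value is uncertain to that extent.

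Nr2f2, the nuclear receptor COUP-TFII, which binds direct repeat elements, went from 13.4 ± 0.959 CPM (SD, n = 5) to 17.5 ± 1.43 CPM (SD, n = 4). This was a rise of 0.39 ± 0.08 (log2, SE), adjusted p = 0.0361. The call was lost with no low-count filter (adjusted p = 0.0567). With library sizes that omit the 10 most abundant genes, the adjusted p was 0.0507. The call was also lost after thinning all libraries to the smallest total (adjusted p = 0.1301). The thinning was a single random draw, after which 182 of 13497 tested genes passed, against 398 of 14873 in the main fit.

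Nr0b2, the bile acid-induced repressor SHP, was at 37.9, 25, 22.7, 32.3 and 23.9 CPM in controls and at 15.8, 16.8, 17 and 18.3 CPM with antibiotics. Nr0b2 fell by 0.74 ± 0.15 (log2, SE), adjusted p = 0.0323. After thinning to the smallest total the adjusted p was 0.0702. Nr1h4, the bile acid receptor, was at 80.8 ± 5.39 CPM in controls (SD, n = 5) and 95.9 ± 11.8 CPM with antibiotics (SD, n = 4), adjusted p = 0.159. The clock repressor Nr1d1 had -0.35 ± 0.08 (adjusted p = 0.0536) and the lipogenic factor Srebf1 0.51 ± 0.13 (adjusted p = 0.0600). With DESeq2, Nr1d1 and Srebf1 passed, with adjusted p of 0.00548 and 0.00730, as did the receptor Lsr at 0.0240. Hnf4a, the nuclear receptor best known for driving apolipoprotein promoters, was at 690 ± 65.4 CPM in controls and 665 ± 75.6 CPM with antibiotics, adjusted p = 0.829, and is named here outside the rule for naming genes.

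The 13 mRNAs of the mitochondrial genome, followed here as a sign of RNA quality, all had positive log2 fold changes, of which 0 passed. Their summed level was 44870 to 65260 CPM in controls and 49450 to 73680 CPM with antibiotics, and they had mean log2 deviations from the control mean of 0.345, 0.578, 0.412 and -0.0646 in antibiotics libraries 1, 2, 3 and 5. Library 5 was within the control span of -0.162 to 0.27, and libraries 1, 2 and 3 were above it. The part of RNA quality in these results was not tested.

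The calls depended on single libraries to differing degrees. Esrra passed in 7 of the 9 fits with 1 library omitted, failing without antibiotics library 1 or 5. Sort1 passed in 4 of 9, failing without control 2 or any antibiotics library. Nr0b2 passed in 4 of 9, failing without control 4 or any antibiotics library. Nr2f2 passed only without control 3 or 5 and Sdc1 only without control 5. The number of passing pathway genes was 3 without control 2 and 3 without control 4. It was 2 without antibiotics library 2 or 3, and 1 without antibiotics library 1 or 5. Calls over all genes also changed with the library left out. Without control 1, 171 of 14589 tested genes and 6 pathway genes passed, against 398 of 14873 and 7 in the main fit. These pathway counts therefore do not describe the pathway genes alone.

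**Figure D5:**
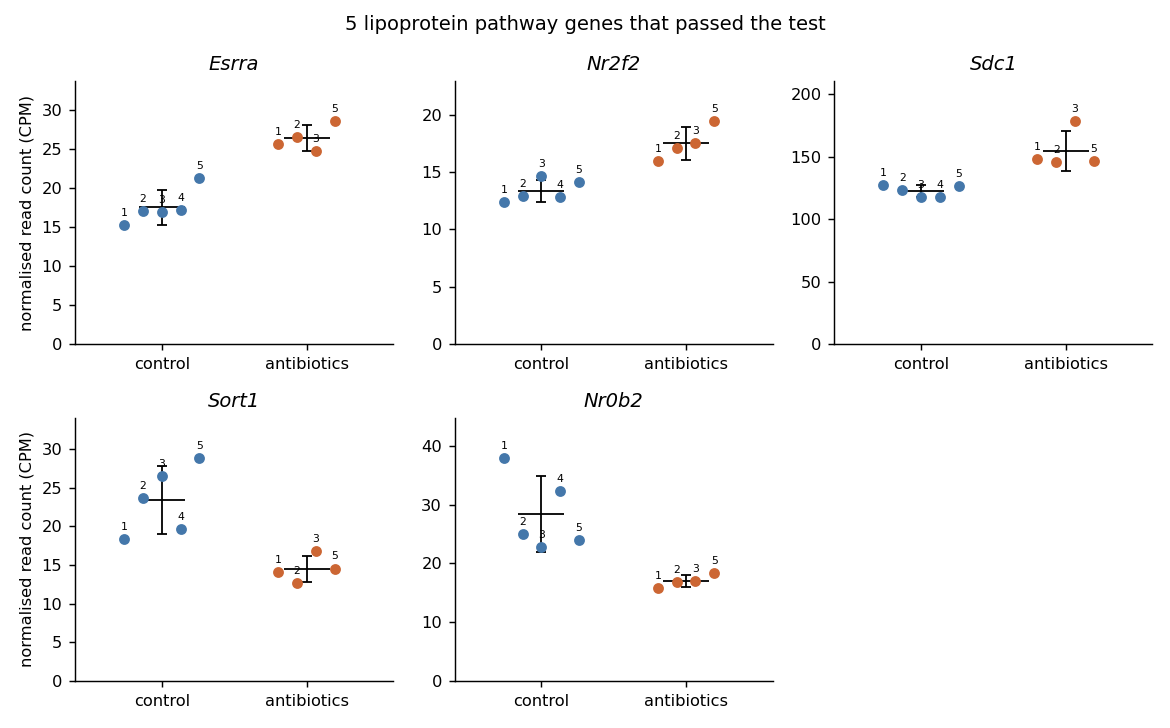
Normalised counts (CPM) of 5 of the 7 passing lipoprotein pathway genes in each library, with points labelled by replicate number, the group mean as a line and the SD as a bar. The 5 control and 4 antibiotics libraries do not overlap for any of these 5 genes, which were drawn because they passed, and Sort1 and Nr0b2 are lower with antibiotics.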

How the data were processed

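Liver RNA was made into stranded poly(A) libraries, per the labels' protocols. The deposited values are estimated counts per gene, which the authors obtained with Salmon and the GRCm38 build, per the submitters' processing notes. No source used here gives its version, its settings or its use of strand. Values were whole numbers and were used unchanged. Gene identifiers were matched to GENCODE M21.

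The 14873 genes kept by filterByExpr (minimum count 10, minimum total 15) were fitted with edgeR 4.0.16 in R 4.3.3, using TMM factors and the quasi-likelihood F test for group, without covariates. P-values were adjusted by Benjamini-Hochberg over all of them, and adjusted values under 0.05 passed. SEs are the size of the log2 fold change over the square root of F. The script was tested on simulated data. Totals ran from 15422891 to 59179622 counts, and the biological coefficient of variation was 16.7%. No 2 libraries of the same group agreed within sampling noise (lowest chi-square per degree of freedom 18.5 over 16 pairs). Pairs across the groups were not compared in this way.

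The 10 genes, the lists and the markers were chosen with earlier results of these data known. The rule for naming genes took the 10 genes, each passing pathway gene, up to 3 others per list with the smallest p, and 3 genes most like the gene with the smallest p. Some genes that the rule names are not reported here. BLAST+ 2.17.0 found transcripts with close copies (200 nt or more at 95% identity or higher). Alternatives were RLE and upper-quartile factors, library sizes without the 10 most abundant genes or without the 10 genes described, DESeq2 1.42.0, limma-voom (limma 3.58.1), other filters and thresholds, thinning, a block for replicate number, and leaving out each library in turn. A length correction and a sum of Apoc2 and Gm44805 were added after seeing the data.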

Additional observations from a re-analysis of the deposited data

Results flagged for a closer look

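In 6 of 64 groups of libraries checked, 1 library stood apart from the rest of its group by more than the 95% critical ratio of Dixon's test. Chance alone gives this in about 1 of 20 groups. Apoa2 was at 4686 CPM in antibiotics library 1, with the nearest of that group at 4183 CPM. Mttp was at 403 CPM in antibiotics library 2, with the nearest at 332 CPM. Apom was at 259.7 CPM in control 5, with the nearest at 220.1 CPM, and at 166.7 CPM in antibiotics library 2, with the nearest at 207.7 CPM. Lpl was at 16.9 CPM and Sdc1 at 178.4 CPM in antibiotics library 3, with the nearest at 10.51 and 148.2 CPM.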

How the results depend on the processing

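Under every alternative run, 0 of the 10 genes passed, with adjusted p from 0.0792 (Apoa5, without control 5) to 0.998 (Apob, without control 4). The sign held in all alternatives for 7 of them, while Apob was 0.0197 with the replicate block, and with 1 library left out Apob ranged from -0.0894 to 0.0686, Apoc1 from -0.132 to 0.0299 and Apoe from -0.0525 to 0.119. Sorl1 was 0.0932 after thinning, which was a single random draw. The cause of these changes was not tested. The number of passing genes was 398, and it was 975 with DESeq2, 182 after thinning, 937 at an adjusted p under 0.1 and 36 to 455 with 1 library left out. The 7 passing pathway genes became 4 with no low-count filter, 10 with DESeq2, 10 at an adjusted p under 0.1, and 1 to 8 with 1 library left out. With the replicate number as a block, 169 genes and 3 pathway genes passed, and adjusted p was 0.121 for Sdc1, 0.0755 for Nr0b2 and 0.0731 for Nr2f2. Same-numbered libraries correlated by -0.0514 to 0.159 in their deviations, and 2 of 4 antibiotics libraries correlated best with their own number. These values do not settle whether the numbers pair the libraries. The labels do not say what the numbers mean, so the main fit had no pairing. In the antibiotics group, 3 of the 4 libraries held fewer counts than every control, so depth was uneven between the groups.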
